A study of Rattus norvegicus with 10 samples.

Results

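Rat knee cartilage sampled 10 weeks after papain, with a GFP vector given at week 4 (SHAM), was compared with cartilage sampled 4 weeks after papain without a vector (OAC). The comparison uses 6 of the 10 libraries of the series, chosen by the group named in their titles, with 3 libraries in each group, and covers all genes of the expression table: 17419 transcripts, of which 11282 had a mean of at least 0.5 FPKM over all 10 libraries and were tested. FPKM counts the sequenced fragments of a transcript relative to its length and to the depth of the library. OAC joints received papain with L-cysteine and no further agent. SHAM joints received the same injection and, 4 weeks later, AAV-DJ-GFP, an adeno-associated virus that carries a fluorescent protein in place of a therapeutic gene. Papain, a plant protease, digests the proteoglycan of the matrix, so both groups are joints with a chemical injury, and the labels give an age of 5 months for each library whatever the interval. Because SHAM differs from OAC in both the interval after injury and the vector, effects of time and of the vector cannot be told apart. Expression from the vector was not analysed here. The remaining 4 libraries, 2 of untreated joints (HC) and 2 of papain joints given αKlotho and soluble TGFBR2 by AAV at week 4 and taken at week 10 (KT), entered the same fit, so they bear on the variance and on which genes were tested, and their levels are set beside the comparison. With the 6 OAC and SHAM libraries alone 117 genes were called higher and 38 lower in SHAM, against 104 and 27 with all 10.

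Interferon gamma, a cytokine released by activated T and natural killer cells, signals from a receptor at the cell surface to the nucleus and switches on chemokines that attract T cells, GTPases that act against intracellular pathogens, and the machinery that cuts proteins and loads the peptides onto histocompatibility molecules. The circadian clock is a separate circuit, in which BMAL1 (gene Arntl) with CLOCK or NPAS2 activates Per, Cry, Nr1d1 and Nr1d2, whose products repress the activators. Both circuits are known in joints, where chondrocytes keep time and where synovial and marrow leukocytes respond to interferon.

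Depth, recovered from the step that 1 read makes in the FPKM values, was 58.2 to 70.9 M reads in the OAC libraries and 52.4 to 65.3 M in the SHAM libraries. Of the defining chondrocyte genes, Col2a1 and Acan were high in all 6 libraries (1884 to 4644 and 175 to 359 FPKM). Sox9, another of them, was far lower, with its levels given below. Genes of tissues that lie under or beside the joint surface were also high. Summed FPKM of 23 listed erythroid genes ran from 34173 to 65493, and that of 23 neutrophil and marrow genes from 18523 to 24987, with the groups overlapping in both. SHAM replicate 3 stood apart on the first principal component (30.9, against -17.3 to 4.36 for the other 5), and its 36 listed skeletal muscle genes summed to 7520 FPKM, against 326 to 1917 in the others. Nothing in the labels ties each library to an animal of its own, and the p-values therefore reflect only library-to-library spread, part of which may be technical. Run tags given by the authors followed the OAC and SHAM groups in large part. Tag 2 marked 2 OAC libraries and no library of another group. Tag 1 marked 2 SHAM libraries, 1 HC and 1 KT library, and none of OAC. Tag 3 marked 1 library of each group. It is not known which OAC or SHAM replicate carried which tag. An effect of the tags was therefore not tested, and it cannot be told apart from the difference between SHAM and OAC. Kl, the gene for αKlotho, was at 0.011 to 0.073 FPKM in the 6 libraries and at 14.2 and 10.3 in KT, where it was delivered.

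Of the 11282 genes tested, 131 (1.16%) differed between SHAM and OAC by limma at a Benjamini-Hochberg adjusted p under 0.05. In SHAM 104 rose (0.922%) and 27 fell (0.239%), and in none of the 131 did the 3 SHAM libraries overlap the 3 OAC libraries. Absence of overlap was common on its own, since 7.81% of all tested genes lay wholly higher and 10.0% wholly lower in SHAM. The rise was at least 1 on the log2(FPKM + 1) scale for 79 genes and the fall was at least as large for 12, against a median of -0.02 over all tested genes. Of the 131 calls 49 held in each of the 6 fits that left out 1 library, 46 of them higher and 3 lower, the 3 being Arntl, Npas2 and Mall. The total fell from 131 to 73, 68 and 57 without OAC replicate 1, 2 or 3, and to 91, 54 and 65 without SHAM replicate 1, 2 or 3. The authors' deposited table listed 371 genes higher (2.56%) and 155 lower (1.07%) in SHAM among 14509 with an adjusted p. Of the 131 genes called here 127 had an adjusted p in the authors' deposited table, and all 127 were under 0.05 there in the same direction, which is 96.9% of the 131 and 24.1% of the 526 in that table.

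**Figure D1:**
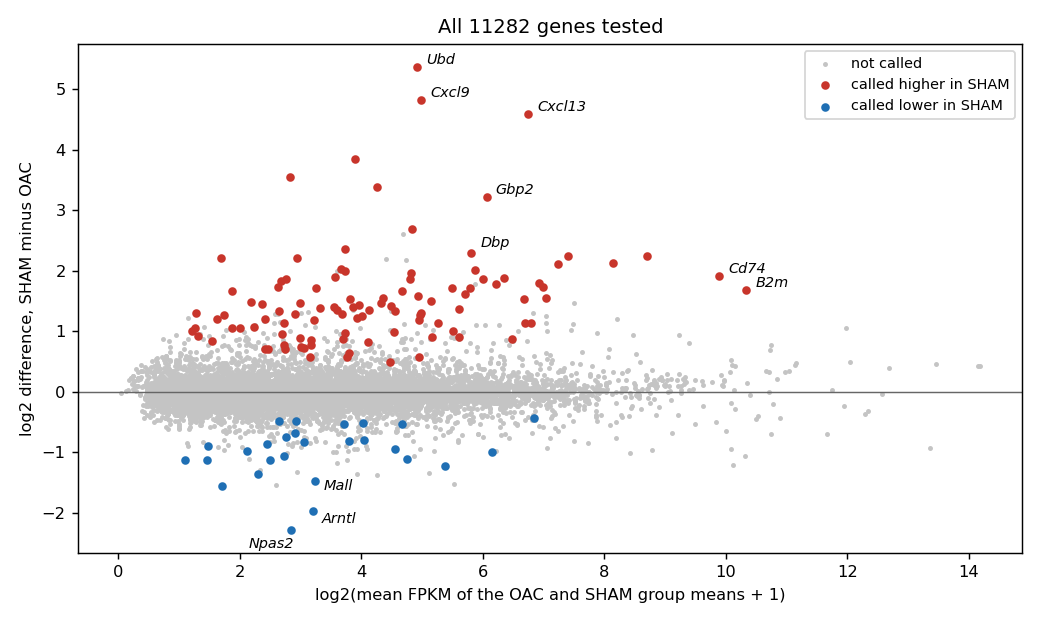
Log2 difference (SHAM minus OAC, on log2(FPKM + 1), y axis) of each of the 11282 tested genes against its level in the 2 groups (log2 of the mean FPKM plus 1, x axis). Red points are the 104 genes called higher and blue points the 27 called lower; Ubd, Cxcl9 and Cxcl13 lie at the top, and Npas2 and Arntl at the bottom.

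Most of the tallest rises were in genes that interferon gamma is known to induce. Cxcl13, a chemokine taken up further below, was also among the tallest, with a log2 difference of 4.59. In what follows, values in parentheses or series are FPKM of replicates 1, 2 and 3, means carry the SD over n = 3 libraries, fold changes are ratios of mean FPKM, and gene positions follow the authors' expression table (rn6). Cxcl11 (chromosome 14 from 17195395 to 17198170) encodes a ligand of the chemokine receptor CXCR3. It was at 0.054, 0.115 and 0.00 in OAC and at 13.3, 16.3 and 6.75 in SHAM. Its OAC values rest on 11 recovered reads in all, against 2255 in SHAM, a ratio of 219 per library total with a counting interval (exact, 95%) of 122 to 439. Its neighbours Cxcl10 and Cxcl9, which bind the same receptor, lay in the same order, with Cxcl10 at 0.726, 0.914 and 1.06 in OAC and 32.7, 29.0 and 19.4 in SHAM. Each SHAM library held many times the level of any OAC library for all 3 ligands. In SHAM replicate 2 Cxcl9 reached 101 FPKM against 41.1 and 37.9 in the other two, so the chemokines were not equally high across the SHAM joints. Cxcr3, the receptor, was at 1.62 in OAC and 1.92 in SHAM on average, and its difference did not pass the test (adjusted p = 0.90, limma with Benjamini-Hochberg). Ubd, a ubiquitin-like protein that tags others for the proteasome, was at 0.127, 0.927 and 0.257 in OAC and 66.2, 64.9 and 42.8 in SHAM. Its log2 difference was 5.37 ± 0.29 (SE, limma, Benjamini-Hochberg adjusted p = 0.00014). In KT these genes lay under every SHAM library, with Cxcl9 at 1.80 and 6.42, Cxcl10 at 2.05 and 3.48, Cxcl11 at 0.274 and 0.923 and Ubd at 0.383 and 1.42. For the 3 chemokines both KT libraries were above every OAC library, and for Ubd the KT mean was within the OAC range.

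Ifng itself, the gene for the cytokine, lay under the filter and had no limma test. Its recovered reads were 0, 4 and 0 in the OAC libraries and 32, 12 and 27 in the SHAM libraries, or at most 0.137 FPKM in OAC and 1.22, 0.366 and 0.929 in SHAM. The groups did not overlap, and the ratio per library total was 19.0 with a counting interval (exact, 95%) of 7.09 to 71.5, which covers counting error only. In the authors' deposited table the log2 difference of Ifng was 4.32 with an adjusted p of 0.038. The reads of Ifng were 1 and 2 in HC and 3 and 9 in KT. The receptor genes Ifngr1 and Ifngr2 had log2 differences of -0.17 and 0.00, and Jak2, a kinase bound to the receptor, one of -0.05. None of the 3 passed (limma, Benjamini-Hochberg adjusted p of 0.84 to 1).

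Among 17 tested genes of the list of GTPases and regulators 9 rose and 0 fell, against 0.922% and 0.239% of all tested genes. The list also holds Ifngr1 and Jak2, given above. The median of the list was 1.20 on the log2 scale, against -0.02 for all tested genes. Gbp2, a guanylate-binding protein, was at 9.21, 13.7 and 12.2 in OAC and 153, 123 and 84.0 in SHAM, and Gbp5, which promotes inflammasome assembly, at 3.49, 3.39 and 3.08 and at 21.2, 22.2 and 20.4. The 3 SHAM libraries were close to each other for Gbp5 and more spread for Gbp2, and no SHAM library came near the OAC libraries. Igtp and Irgm, immunity-related GTPases of vacuole defence, rose 7.40-fold and 4.68-fold, and Ifi47, of the same family, 3.17-fold. Irf1, which relays the signal to further genes, was at 17.3, 18.2 and 16.1 in OAC and 37.9, 45.2 and 46.0 in SHAM. All of these held without any single library. Ciita, the activator of class II histocompatibility genes, rose from 2.18 ± 0.323 to 6.42 ± 1.91 FPKM (limma, Benjamini-Hochberg adjusted p = 0.019). The Ciita call ended without OAC replicate 1, 2 or 3 or SHAM replicate 2 or 3 (adjusted p of 0.056, 0.087, 0.081, 0.063 and 0.089). Members of the list that did not pass included Irf8 at 13.4 against 17.3 FPKM, and the feedback inhibitors Socs1 at 3.30 against 3.91 and Socs3 at 7.11 against 8.93. Reads of the guanylate-binding and immunity-related GTPase families can be split between near-identical copies, so the level of a single member is less certain than that of the group.

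Promoter letters of 5 of these genes are shown because the genes rose together, and because 2 short elements are known from promoters of interferon-induced genes: the GAS element (TTCNNNGAA) and the interferon-stimulated element (searched as GAAA, any 2 bases, then GAAA). The kB element of NF-kB (GGGA, any base, then TTTCC) was also searched, each on both strands of the 250 bases before the start in RefSeq (rat build GRCr8, not the rn6 of the expression table). Among 19 matched promoters of the 21 called chemokine, GTPase and peptide-loading genes, 6 held a GAS match, 10 an interferon-stimulated match and 3 a kB match, against 7.7%, 3.4% and 0.3% of 33469 promoters. Capitals mark the matches to these 3 motifs, and each sequence is read 5′ to 3′ towards the gene. A match is a description of letters, not of a used site.
Cxcl10 (chr14:15988816-15989065, plus strand): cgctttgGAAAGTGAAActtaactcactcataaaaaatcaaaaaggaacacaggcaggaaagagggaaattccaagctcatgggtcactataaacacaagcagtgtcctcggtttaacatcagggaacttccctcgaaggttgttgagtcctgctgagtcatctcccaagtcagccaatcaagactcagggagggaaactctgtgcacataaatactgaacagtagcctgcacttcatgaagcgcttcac
Gbp2 (chr2:234005477-234005726, plus strand): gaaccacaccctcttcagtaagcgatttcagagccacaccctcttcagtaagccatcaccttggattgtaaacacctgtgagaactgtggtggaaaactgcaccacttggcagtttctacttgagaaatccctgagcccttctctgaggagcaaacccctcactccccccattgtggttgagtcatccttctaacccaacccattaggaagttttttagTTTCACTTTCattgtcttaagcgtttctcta
Igtp (chr10:42874797-42875046, plus strand): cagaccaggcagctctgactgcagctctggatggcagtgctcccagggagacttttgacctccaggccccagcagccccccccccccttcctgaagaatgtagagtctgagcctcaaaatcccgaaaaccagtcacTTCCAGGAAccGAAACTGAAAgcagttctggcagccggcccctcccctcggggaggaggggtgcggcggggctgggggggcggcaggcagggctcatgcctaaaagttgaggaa
Irf1 (chr10:38417685-38417934, plus strand): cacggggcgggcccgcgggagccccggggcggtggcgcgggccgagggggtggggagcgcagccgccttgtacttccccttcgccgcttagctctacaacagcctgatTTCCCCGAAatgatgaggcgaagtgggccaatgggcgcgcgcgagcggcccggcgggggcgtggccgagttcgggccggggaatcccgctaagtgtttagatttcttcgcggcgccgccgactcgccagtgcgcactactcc
Tap1 (chr20:4668544-4668793, minus strand): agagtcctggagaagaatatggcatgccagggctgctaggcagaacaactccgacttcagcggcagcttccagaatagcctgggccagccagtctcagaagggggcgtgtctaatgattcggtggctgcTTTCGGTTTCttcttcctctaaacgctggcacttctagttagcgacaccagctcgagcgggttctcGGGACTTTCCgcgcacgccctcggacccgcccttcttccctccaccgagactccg
In these letters the Irf1 window held a GAS match alone, the Cxcl10 and Gbp2 windows an interferon-stimulated match alone, Igtp both next to each other, and Tap1 an interferon-stimulated and a kB match. Cxcl10 and Gbp2 lay at opposite ends of the window, with the match starting 243 bases before the start in Cxcl10 and 31 bases before it in Gbp2. The 5 promoters shown all held a match. Those of Ubd, Cxcl9, Psmb9, Psme1 and Tapbpl, which also rose, held none of the 3 elements in this window. Ubd and Cxcl9 had the largest log2 differences of all called genes, at 5.37 and 4.83.

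Several genes of the machinery that cuts and loads peptides for class I molecules rose. Of 13 tested members of the immunoproteasome and peptide-loading list 8 rose and 0 fell, against 0.922% and 0.239% of all tested genes. The median was 0.82. The inducible proteasome subunit Psmb8 was at 17.4, 17.1 and 18.2 in OAC and 50.9, 53.4 and 49.8 in SHAM, with a log2 difference of 1.5 ± 0.08 (SE, limma, Benjamini-Hochberg adjusted p = 0.00014). Psmb9 and Psmb10, the other 2 inducible subunits, rose 3.75-fold and 2.03-fold. All SHAM libraries lay above all OAC libraries for the 3 subunits, with a wider spread within SHAM for Psmb9 (90.4 to 117). The activator subunits Psme1 and Psme2 rose 1.84-fold and 1.81-fold, and Tap1, which pumps peptides into the endoplasmic reticulum, 2.82-fold. Tap2, the other chain of that pump, was under the filter at 21 reads in OAC and 16 in SHAM (ratio per library total 0.814, exact 95% counting interval 0.397 to 1.64). B2m, the light chain of every class I molecule, was at 567, 690 and 572 in OAC and 2135, 2156 and 1634 in SHAM. The general chaperones Calr, Pdia3 and Canx, which fold many other proteins, had log2 differences of -0.10, 0.11 and 0.10 without passing (adjusted p of 0.87 to 0.93 by limma with Benjamini-Hochberg). Tapbpl, a peptide editor, rose 1.84-fold. The Psme2 call ended without OAC replicate 2 or 3 or SHAM replicate 1, 2 or 3 (limma, Benjamini-Hochberg adjusted p of 0.058 to 0.078), and that of Tapbpl without OAC replicate 2 or 3 or SHAM replicate 2 or 3 (0.051 to 0.056).

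Of 27 tested RT1 genes, the rat histocompatibility complex with Cd74, 12 rose and 0 fell, against 0.922% and 0.239% of all tested genes. The median was 0.91. Class II was represented by the chains RT1-Ba, RT1-Bb, RT1-Da and RT1-Db1 and by Cd74, the invariant chain that guards their groove. RT1-Bb was at 33.3, 38.8 and 28.7 in OAC and 105, 156 and 120 in SHAM, and RT1-Db1 at 69.8, 52.8 and 49.5 and at 215, 369 and 255. SHAM replicate 2 was the highest of the 3 for each of these chains and for Ciita, while SHAM replicate 1 was the lowest. In the class I gene RT1-CE10 the 3 SHAM libraries were close, at 63.6, 71.9 and 68.9, against 18.6, 18.2 and 23.9 in OAC. Calls of RT1-Da and Cd74 rose to adjusted p of 0.052 and 0.065 without OAC replicate 2 and to 0.058 and 0.07 without OAC replicate 3 (limma, Benjamini-Hochberg), and Cd74 and RT1-Ba also lost theirs without SHAM replicate 2 or 3 (adjusted p of 0.054 and 0.065 for Cd74 and of 0.053 and 0.071 for RT1-Ba). RT1-Ba further lost its call without OAC replicate 1, 2 or 3 (0.071, 0.065 and 0.068). The list held 7 calls without OAC replicate 3 and 7 without SHAM replicate 2. RT1 genes are near-identical copies and vary between rat strains, so the authors' counting could have moved reads between members.

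Of 31 tested genes classed as effectors of type I interferon, 1 rose (Bst2, which tethers budding virus, 1.88-fold) and 0 fell. Their median was 0.06, and over all tested genes 0.922% were called higher. Wholly higher in SHAM were 8 of the 31 and wholly lower 4, against 7.81% and 10.0% of all tested genes. The unadjusted p was under 0.05 for 5 higher and 4 lower. The authors' deposited table had 7 higher and 1 lower, against 2.56% and 1.07% of all genes with an adjusted p there. The 8 wholly higher were Bst2, Irf9, Stat2, Usp18, Ifi44, Ifi35, Cmpk2 and Rtp4. Of these Rtp4 had the largest log2 difference, at 1.15, without passing (limma, Benjamini-Hochberg adjusted p = 0.084). The Bst2 call ended without OAC replicate 1 or 3 or SHAM replicate 1, 2 or 3 (limma, Benjamini-Hochberg adjusted p of 0.09, 0.14, 0.14, 0.13 and 0.13). Rsad2, an antiviral enzyme, was at 40.2, 33.3 and 24.5 in OAC and 30.1, 34.6 and 31.2 in SHAM, and Irf7, the amplifier of the type I response, at 13.1, 22.4 and 10.1 and at 17.3, 14.1 and 10.4. The groups overlapped for both. The RNA-sensing synthetases Oas1a, Oas1b, Oas2 and Oas3 lay lower in every SHAM library than in any OAC library, with log2 differences of -0.64, -0.74, -0.31 and -0.32, and none passed the test. Irf9 and Stat2, members of the complex that type I interferon uses, lay wholly higher with means of 30.0 against 21.5 and 19.0 against 13.8 FPKM, but missed the threshold (adjusted p = 0.24 and 0.26, limma with Benjamini-Hochberg). In the authors' deposited table both were under 0.05, with log2 differences of 0.52 and 0.49. Sensors of nucleic acid, the receptors and adaptors that detect viral RNA or DNA, gave 0 calls among 14 by limma (unadjusted p under 0.05: 4 higher, 0 lower) and 4 higher in the authors' deposited table. Their median was 0.14.

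**Figure D2:**
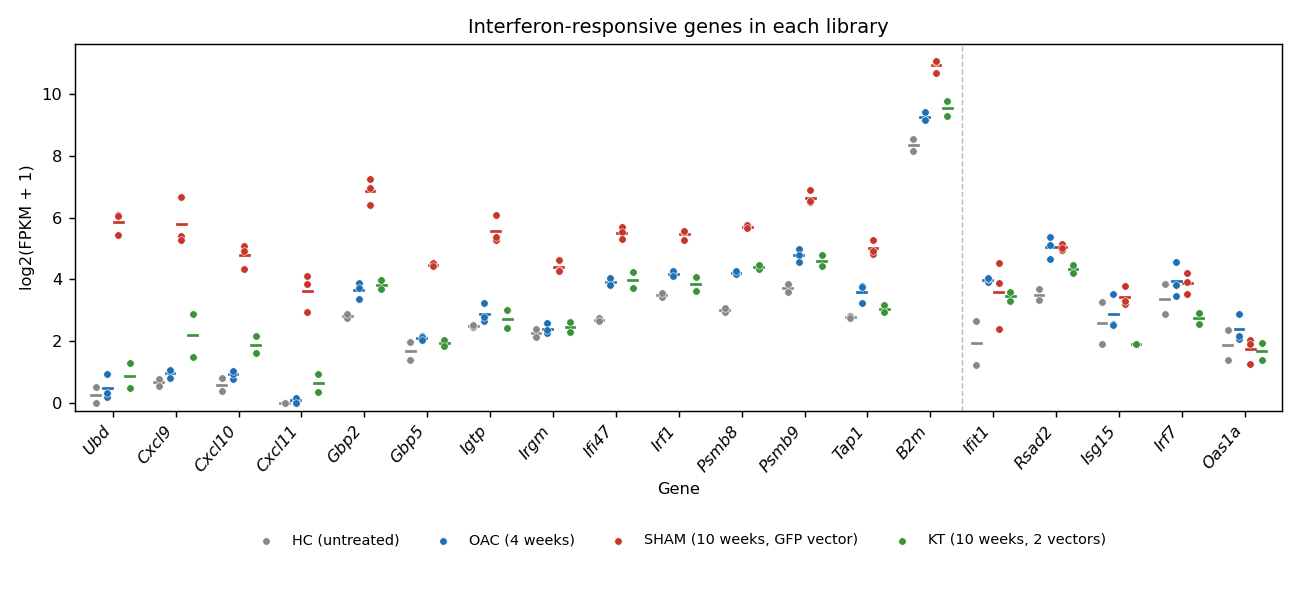
Level (log2(FPKM + 1), y axis) of 19 genes (x axis) in each library, with 1 point per library and a bar at the group mean: 2 HC, 3 OAC, 3 SHAM and 2 KT libraries. The 14 genes left of the dashed line were called higher in SHAM, where their SHAM points stand above all OAC points. The 5 type I effectors to its right were not called, and of these Oas1a lay wholly lower in SHAM. The 8 members of the type I list that lay wholly higher, with the called Bst2 among them, are not drawn.

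Further chemokines and cytokines rose in smaller numbers. Of 25 tested chemokines and receptors outside the CXCR3 ligands 5 rose and 0 fell, against 0.922% and 0.239% of all tested genes. The median was 0.37. Of the 25, 9 lay wholly higher in SHAM and 0 wholly lower, against 7.81% and 10.0% of all tested genes. The unadjusted limma p was under 0.05 for 9 higher and 0 lower. The authors' deposited table had 7 higher and 0 lower, against 2.56% and 1.07% of all genes with an adjusted p there. Cxcl13, which draws B cells, was at 3.11, 20.9 and 5.08 in OAC and at 187, 264 and 154 in SHAM, so that 1 OAC library stood well above the other two. Its call ended without SHAM replicate 2 (limma, Benjamini-Hochberg adjusted p = 0.053). Unlike the CXCR3 ligands, Cxcl13 was high in both KT libraries, at 134 and 386 FPKM, and at 26.1 and 25.4 in HC. Ccl3 and Ccl4, which draw macrophages and T cells, rose 2.63-fold and 5.03-fold. Ccl4 lost its call without OAC replicate 2 or 3 or SHAM replicate 3 (adjusted p of 0.051, 0.054 and 0.051). Cxcl16, a membrane-bound chemokine and scavenger receptor, rose 3.13-fold.

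Among 23 inflammatory cytokine and NF-kB genes 3 rose (Il18, its inhibitor Il18bp, and Tlr2) and 0 fell, against 0.922% and 0.239% of all tested genes. The median was 0.24. Of the 23, 10 lay wholly higher in SHAM and 1 wholly lower, against 7.81% and 10.0% of all tested genes. The unadjusted limma p was under 0.05 for 9 higher and 1 lower. The authors' deposited table had 6 higher and 0 lower, against 2.56% and 1.07% of all genes with an adjusted p there. The 29 list members summed to 381 to 536 FPKM in OAC and 550 to 610 in SHAM. Il18, an inflammasome cytokine that stimulates interferon gamma release, was at 10.3, 11.1 and 9.89 in OAC and at 41.6, 54.0 and 36.3 in SHAM, and Il18bp, the soluble protein that binds it, at 5.72, 5.82 and 5.82 and at 13.8, 18.5 and 17 in SHAM. The OAC libraries were tight for both and lay under every SHAM library. The Il18 call ended without any 1 of the 6 libraries (limma, Benjamini-Hochberg adjusted p of 0.064 to 0.11), as did that of Tlr2, a receptor for bacterial lipopeptides (0.06 to 0.14), while Il18bp held throughout. Il1b, the main cytokine of acute joint inflammation, was at 3.56, 4.43 and 2.64 against 3.56, 5.77 and 3.83, and the groups overlapped. Tnf had 0 reads in OAC and 4 in SHAM. Il6 lay under the filter, with 5, 5 and 16 reads in OAC and 16, 33 and 17 in SHAM, which touch at 16, and a ratio per library total of 2.71 (counting interval, exact, 95%: 1.70 to 4.45). Nfkb1, the precursor of a core NF-kB subunit, differed by -0.03.

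Several called genes known from myeloid cells are given here one by one, and those beyond Acod1 and Sectm1b were chosen after their values were seen, because they rose. Acod1, the mitochondrial enzyme that makes itaconate in activated macrophages, was at 0.026, 0.129 and 0.072 in OAC and at 5.31, 5.73 and 1.97 in SHAM. It rests on 29 reads in OAC and 1637 in SHAM, a ratio of 60.3 (counting interval, exact, 95%: 41.8 to 90.3). Slc11a1, a phagosome metal transporter, was at 4.48, 4.26 and 3.22 in OAC and 15.1, 20.1 and 17.6 in SHAM, and Slamf8, a surface receptor of myeloid cells, at 1.85, 2.33 and 1.40 and at 8.73, 13.3 and 7.01. Sectm1b rose 15.2-fold, and Slc2a6, a lysosomal hexose transporter, 3.74-fold. All 5 held without any single library. In KT, Slc11a1 was at 3.52 and 4.48 and Acod1 at 0.09 and 0.017, near OAC, whereas Sectm1b was at 20.9 and 25.9, within the range of SHAM. MGC105649, on chromosome 3 from 114772603 to 114776156, rose 3.53-fold. Mir147, whose hairpin lies inside it on the same strand (114775343 to 114775421), was listed at 52.8 ± 7.8 against 187 ± 37.5 FPKM; the library kit captures messenger RNA, so these reads do not measure the mature microRNA.

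Most macrophage markers did not pass the test. Of 27 tested 2 rose and 1 fell, against 0.922% and 0.239% of all tested genes, and the median was 0.26. Those that rose were Fcgr1a, the high-affinity antibody receptor, 2.37-fold, and Trem2, a lipid receptor, 3.41-fold, and Lyve1 fell. Wholly higher in SHAM were 11 and wholly lower 1, against 7.81% and 10.0% of all tested genes. The unadjusted p was under 0.05 for 12 higher and 1 lower. The authors' deposited table had 11 higher and 1 lower, against 2.56% and 1.07% of all genes with an adjusted p there. Trem2 lost its call without OAC replicate 1, 2 or 3 or SHAM replicate 2 or 3 (limma, Benjamini-Hochberg adjusted p of 0.074, 0.065, 0.10, 0.078 and 0.073). The summed level of the 28 markers was 5825 to 6055 FPKM in OAC and 7029 to 10727 in SHAM, without overlap, and Lyz2 alone supplied 2130 to 3236 and 4104 to 7129 of it. Of the defining markers none was at 0: Cd68 had a log2 difference of 0.09, Csf1r of -0.17 and Cd163 of 0.13, and Adgre1 of 0.71, and none of the 4 passed. C1qa, also a defining marker, lay wholly higher in SHAM without passing, and its levels are given with complement below. The part of macrophage number in the rises above was not tested, and in bulk tissue more cells of a type and more RNA per cell cannot be told apart, nor can fewer cells and less RNA per cell. Lyve1, a marker of lymphatic vessels and of some resident macrophages, fell from 7.25, 6.28 and 6.58 to 1.63, 3.32 and 2.88, and its call ended without any 1 of the 6 libraries (adjusted p of 0.056 to 0.13). Of 24 T and natural killer markers 1 rose, Klrk1, an activating receptor, at 1.81-fold, a call that ended without OAC replicate 2 or 3 or SHAM replicate 1, 2 or 3 (adjusted p of 0.18, 0.18, 0.11, 0.19 and 0.11). The median of that list was 0.25, and the sum of its 28 members overlapped, at 157 to 223 in OAC and 173 to 209 in SHAM. Over all tested genes 0.922% rose. Of the 24 markers 8 lay wholly higher in SHAM and 0 wholly lower, against 7.81% and 10.0% of all tested genes. The unadjusted limma p was under 0.05 for 6 higher and 0 lower. The authors' deposited table had 4 higher and 0 lower, against 2.56% and 1.07% of all genes with an adjusted p there. Cd3d, Cd3g and Cd8b lay wholly higher in SHAM, at mean levels of 3.42 against 1.79, 5.35 against 3.62 and 3.11 against 1.42 FPKM, and did not pass, while Cd3e and Cd8a overlapped.

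Complement genes, which opsonise debris and microbes, leaned the same way. Of 23 tested 4 rose and 0 fell, against 0.922% and 0.239% of all tested genes, and the median was 0.60. In SHAM 13 lay wholly higher, where 7.81% of all tested genes did. The authors' deposited table had 13 of the 23 higher at an adjusted p under 0.05 and 0 lower. Of all genes with an adjusted p there, 2.56% were higher. C1s, the protease of the classical pathway, was at 53.4, 67.1 and 54.9 in OAC and at 204, 193 and 188 in SHAM, and at 14.5 and 18.3 in HC and 124 and 127 in KT. The 4 groups did not overlap for this gene. C4a and C4b rose 3.87-fold and 6.17-fold, as near-identical copies whose reads can be shared, and Cfb, the protease of the alternative pathway, rose 4.05-fold from 0.550 to 2.23 FPKM. Those 3 calls were unstable: C4a ended without OAC replicate 1 or 3 or SHAM replicate 1 or 2, C4b without OAC replicate 3 or SHAM replicate 2 or 3, and Cfb without OAC replicate 1 or 3 or SHAM replicate 2 or 3 (limma, Benjamini-Hochberg adjusted p of 0.052 to 0.12 over the 3 genes). Only C1s was called without OAC replicate 3 or without SHAM replicate 2. The subunits of C1q, which start the classical pathway, were at 59.0 to 90.5 FPKM in OAC and 118 to 169 in SHAM for C1qa, and C1r, the partner of C1s, at 41.0 ± 9.95 in OAC and 88.1 ± 10.8 in SHAM (adjusted p = 0.057). Serping1, which blocks C1s, had a log2 difference of 0.07.

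**Figure D3:**
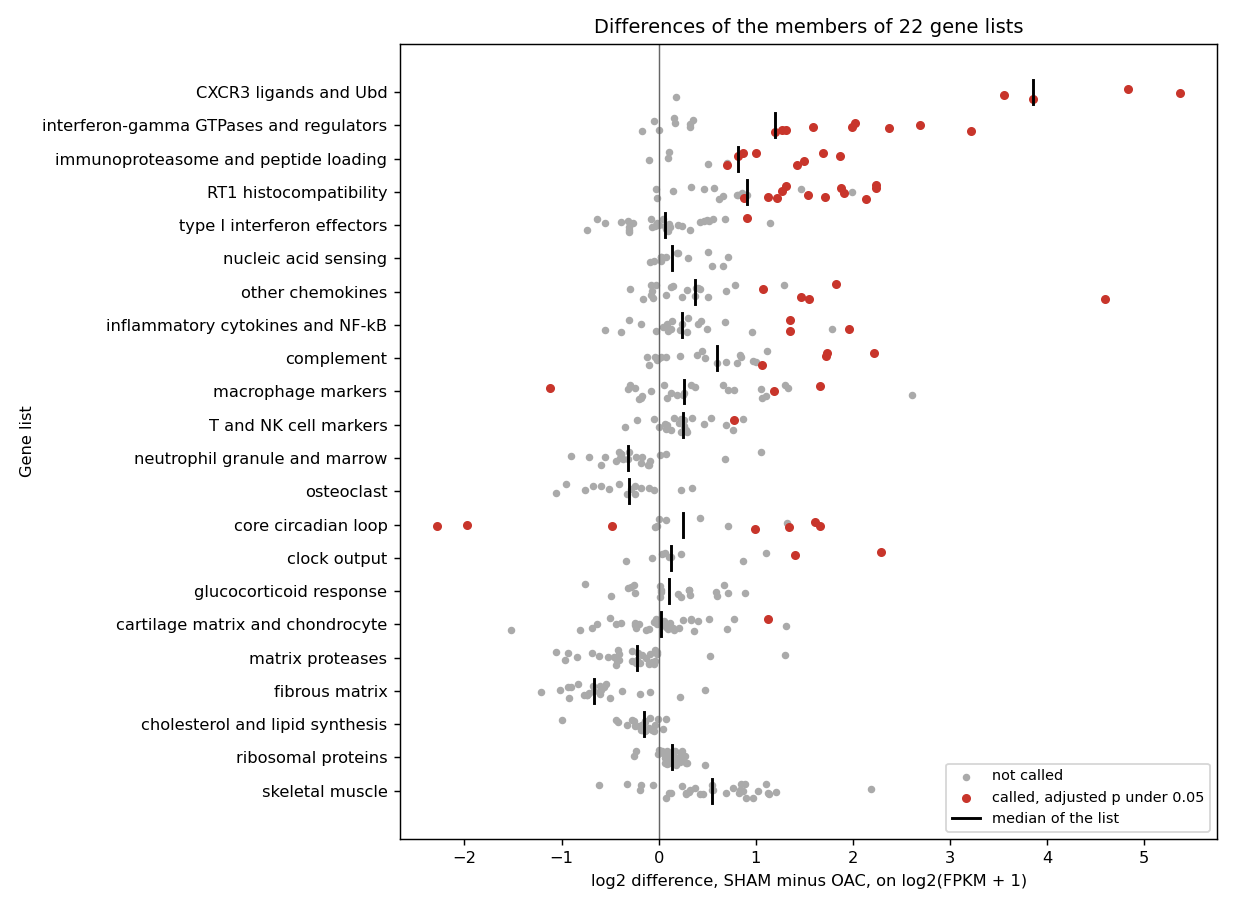
Log2 difference (SHAM minus OAC, x axis) of every tested member of 22 gene lists (y axis), with red points for called genes, grey points for the others and a black bar at the list median. Called members gather at the right in the 4 uppermost lists, whose medians run from 0.82 to 3.85, and the core circadian loop has called members on both sides of 0.

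The clock was the other circuit with large differences, and it moved in both directions. Among 14 tested genes of the core loop 4 rose and 3 fell, against 0.922% and 0.239% of all tested genes. The median was 0.25. Npas2 (chromosome 9 from 45901741 to 46081880) was at 12.8, 11.2 and 8.61 in OAC and 1.85, 1.17 and 1.29 in SHAM, and Arntl (chromosome 1 from 178039063 to 178137471) at 17.2, 12.9 and 10.9 and at 2.77, 2.73 and 2.56. Both activators thus fell in every SHAM library to a small fraction of the lowest OAC library, and both calls held without any single library. Clock, their partner, moved less, from 6.04, 6.42 and 6.29 to 4.56, 4.07 and 3.96 (limma, Benjamini-Hochberg adjusted p = 0.028), and its call ended without OAC replicate 1, 2 or 3 or SHAM replicate 2 or 3 (0.088, 0.14, 0.14, 0.13 and 0.13).

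The repressors and output genes stood on the other side. Ciart, a repressor of the activators, was at 0.751, 0.683 and 0.742 in OAC and 3.04, 4.49 and 6.29 in SHAM. Nr1d2, a nuclear receptor that represses Arntl, was at 14.3, 14 and 15.6 in OAC and at 30.8, 29.2 and 30.0 in SHAM, and Nr1d1, its relative, at 24.4, 20.3 and 29.1 and at 98.8, 61.3 and 72.9. Among the Per genes only Per2 passed, at 2.11, 2.79 and 2.69 against 7.27, 8.34 and 8.15. Per3 lay wholly higher, with means of 11.4 and 4.02 FPKM, without passing (limma, Benjamini-Hochberg adjusted p = 0.063), Per1 overlapped because OAC ran from 2.92 to 13.3, and Cry1 differed by -0.02. Dbp and Tef, transcription factors that carry the rhythm to other genes, rose 5.05-fold and 2.96-fold, and Nfil3, which binds the same sites as a repressor, was at 4.95, 5.28 and 4.92 against 4.28, 3.29 and 3.82 without passing (0.94). Tef and Per2 held without any single library. Nr1d1, Nr1d2 and Dbp each ended without any 1 of the 6 libraries (0.099 to 0.20), and Ciart without OAC replicate 2 or 3 or SHAM replicate 2 (0.051, 0.054 and 0.056). The HC libraries, which enter the shared variance of the fit, lay far apart for Nr1d1 (40.9 and 96.3), Nr1d2 (18.4 and 32.1) and Dbp (12.1 and 51.0). Their part in these adjusted p was not tested. In the authors' deposited table Nr1d1 and Nr1d2 had adjusted p of 8.8e-13 and 3.4e-24 by DESeq2, and Dbp had no value there. The core loop held 4 calls when OAC replicate 1 or SHAM replicate 3 was left out, and 3 when the library left out was OAC replicate 2 or 3 or SHAM replicate 2.

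Set beside the other groups, clock levels in KT lay with SHAM and those in HC lay in part with OAC. Arntl was at 2.68 and 3.35 in KT and 19.9 and 15.4 in HC, Npas2 at 1.46 and 2.78 and at 10.6 and 10.9, and Mall, a membrane raft protein outside the clock lists, at 3.97 and 3.13 and at 13 and 13.2. Mall itself fell from 14.6, 11.9 and 11.9 in OAC to 4.28, 3.43 and 4.17 in SHAM. Tef was at 18.3 and 18.1 in KT and 10.2 and 13.4 in HC, above OAC in both. Over the 104 genes that rose, the KT mean was nearer to OAC than to SHAM on the log2(FPKM + 1) scale for 69, and over the 27 that fell for 8. No test of KT or HC against the other groups is given here. The sources used here do not give the hour at which joints were taken. Of 20 genes of the glucocorticoid response, a daily hormonal signal, limma called 0 (unadjusted p under 0.05: 3 higher, 1 lower), with 1 higher in the authors' deposited table, and a median of 0.11.

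**Figure D4:**
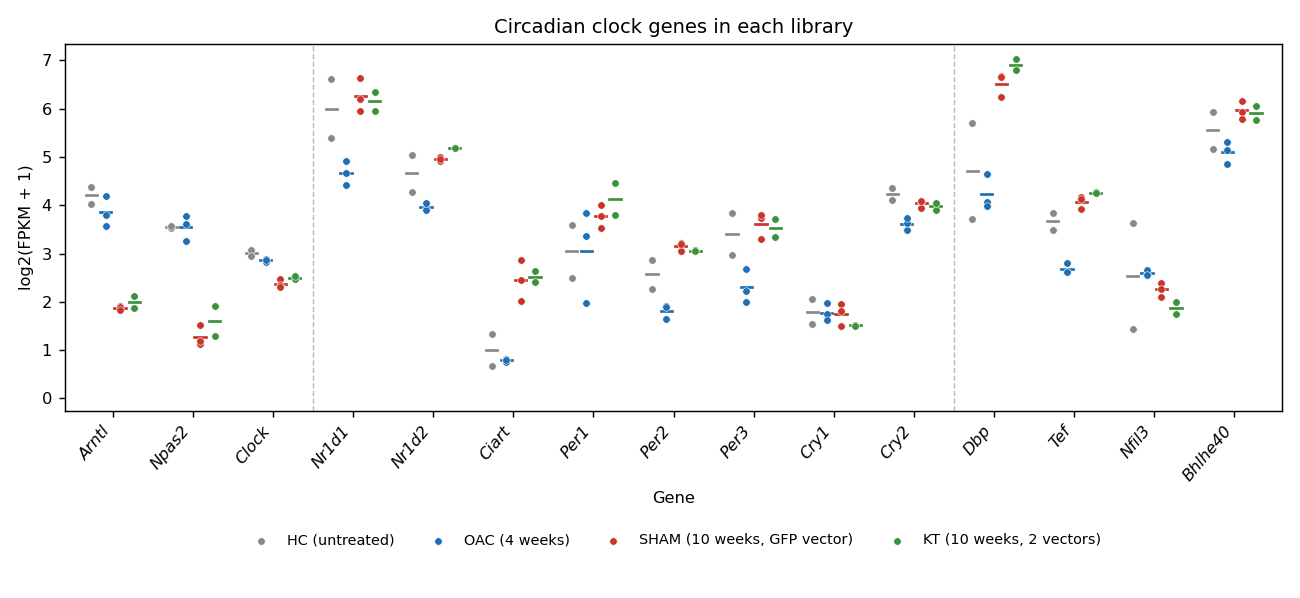
Level (log2(FPKM + 1), y axis) of 15 clock genes (x axis) in each library, 1 point per library with a bar at the group mean; dashed lines separate the activators, the repressors and the output genes. Arntl and Npas2 are high in HC and OAC and low in SHAM and KT, and Ciart, Per2, Dbp and Tef are higher in SHAM and KT than in OAC.

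Promoters of 4 clock genes are shown because these genes moved in opposite directions and because the loop is known to act through 3 short elements: the E-box (CACGTG) bound by BMAL1 with CLOCK or NPAS2, the D-box (searched as TTATGTAA, TTACGTAA or TTACATAA) bound by DBP and TEF, and the ROR element (AGGTCA) bound by NR1D1 and NR1D2. In the 250 bases before the start, on both strands, these occurred in 5.6%, 0.9% and 14.1% of the 33469 RefSeq promoters (GRCr8), and in 2, 1 and 2 of the 9 called clock and output genes. Capitals mark the matches.
Arntl (chr1:176766078-176766327, plus strand): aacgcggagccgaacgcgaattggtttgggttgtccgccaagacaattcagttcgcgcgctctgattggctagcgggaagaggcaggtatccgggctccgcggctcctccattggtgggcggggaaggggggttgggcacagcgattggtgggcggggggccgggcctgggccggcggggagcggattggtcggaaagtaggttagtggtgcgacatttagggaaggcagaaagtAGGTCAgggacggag
Ciart (chr2:186112247-186112496, minus strand): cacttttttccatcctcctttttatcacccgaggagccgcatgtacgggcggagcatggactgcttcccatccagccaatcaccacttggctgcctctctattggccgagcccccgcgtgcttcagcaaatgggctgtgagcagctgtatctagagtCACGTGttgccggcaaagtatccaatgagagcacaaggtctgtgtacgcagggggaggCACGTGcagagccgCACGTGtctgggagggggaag
Tef (chr7:115206577-115206826, plus strand): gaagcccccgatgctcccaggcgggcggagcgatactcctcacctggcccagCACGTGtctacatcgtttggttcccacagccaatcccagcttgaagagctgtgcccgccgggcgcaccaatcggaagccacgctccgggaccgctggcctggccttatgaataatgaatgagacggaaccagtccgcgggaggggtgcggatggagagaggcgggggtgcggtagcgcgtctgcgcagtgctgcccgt
Per2 (chr9:99496994-99497243, minus strand): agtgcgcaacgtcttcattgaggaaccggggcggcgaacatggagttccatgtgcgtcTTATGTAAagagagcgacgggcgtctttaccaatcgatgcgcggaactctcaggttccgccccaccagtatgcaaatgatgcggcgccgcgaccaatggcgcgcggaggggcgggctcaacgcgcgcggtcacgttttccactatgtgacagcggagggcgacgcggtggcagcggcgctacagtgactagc
Arntl, which fell, held the ROR letters 15 bases before its start, and Ciart and Tef, which rose, held E-box letters, 3 times in Ciart. Per2 held a D-box, and Nr1d2, which rose and is not shown, the ROR letters. The 4 promoters shown all held a match. Npas2 and Clock, which fell, and Nr1d1 and Dbp, which rose, held none of the 3 elements in this window.

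Matrix genes of fibrous tissue were lower in SHAM without passing the test. Of 23 tested members, collagens, proteoglycans and crosslinking enzymes of repair tissue and bone, limma called 0 (unadjusted p under 0.05: 0 higher, 12 lower), and the authors' deposited table had 10 lower at an adjusted p under 0.05. Their median was -0.67, 21 were below 0 and 12 lay wholly lower in SHAM, where 10.0% of all tested genes did. Sparc, a collagen-binding glycoprotein of bone and repair tissue, was at 13298, 13386 and 14382 in OAC and 8531, 6947 and 6284 in SHAM. Lum, a small proteoglycan that spaces collagen fibrils, was at 560, 770 and 726 and at 408, 434 and 426. For Sparc and Lum, every SHAM library lay under every OAC library, but neither passed (limma, Benjamini-Hochberg adjusted p = 0.33 and 0.25). Col3a1, a collagen of early scar, was at 335, 665 and 388 against 252, 228 and 178, and Col1a1, the collagen of bone, overlapped because OAC ran from 653 to 2216. Dcn, a proteoglycan that binds collagen and TGF-beta, went against the list at 2663 against 1878 FPKM on average, with overlap. In KT, Lum was at 1246 and 881 and Col3a1 at 760 and 835, above both groups. Genes that did fall included the membrane coat proteins Cav1, from 93.4 ± 10.9 to 46.1 ± 4.62 FPKM, and its neighbour Cav2, from 19.9 ± 2.78 to 11.1 ± 1.23, Pdpn, a surface protein of synovial fibroblasts and osteocytes, from 29.6 ± 1.77 to 15.1 ± 2.96, the crosslinking enzyme Loxl4, from 35.8 ± 7.42 to 16.1 ± 3.20, and Thbs3, an extracellular glycoprotein. The calls of Cav1 ended without OAC replicate 1 or 2 or SHAM replicate 2 or 3 (adjusted p of 0.052 to 0.056), those of Pdpn without OAC replicate 1, 2 or 3 or SHAM replicate 3 (0.061 to 0.083), and those of Loxl4 without OAC replicate 1, 2 or 3 or SHAM replicate 2 or 3 (0.075 to 0.15). Cav2 lost its call without any 1 of the 6 libraries (0.055 to 0.15), and Thbs3 without OAC replicate 1 or 2 or SHAM replicate 1, 2 or 3 (0.072 to 0.094). Osteoclast and osteoblast lists, markers of the bone that a blade can reach, had medians of -0.31 and -0.34 with 0 calls by limma (unadjusted p under 0.05: 0 higher and 1 lower for osteoclast, 1 higher and 3 lower for osteoblast), their sums overlapped (1899 to 5170 in OAC and 1258 to 2778 in SHAM for osteoclast, 5534 to 9827 and 3977 to 7270 for osteoblast), and their part in the fibrous genes was not tested.

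Proteases of matrix breakdown showed the same lean at a smaller size. Of 32 tested limma called 0 (unadjusted p under 0.05: 1 higher, 7 lower), with 1 higher and 5 lower in the authors' deposited table, the median was -0.23 and 30 were below 0. Mmp2, a gelatinase, was at 181, 190 and 152 in OAC and 90.0, 106 and 78.6 in SHAM (limma, Benjamini-Hochberg adjusted p = 0.13). Adamts4 and Adamts5, the aggrecanases, lay wholly lower, at 0.776, 1.27 and 1.36 against 0.494, 0.469 and 0.207 and at 3.67, 4.04 and 3.01 against 1.88, 2.70 and 2.72, and neither passed (0.30 and 0.51). In the authors' deposited table Adamts4 was lower by a log2 difference of -1.51 (adjusted p 0.0067), and Adamts5 was not under 0.05. Mmp3, a stromelysin, and Mmp13, the collagenase of type II collagen, overlapped, with Mmp13 running from 286 to 934 in OAC and 133 to 413 in SHAM. Ctss, a cathepsin of antigen-presenting cells, went the other way at 61.9, 73.8 and 53.0 against 119, 221 and 141 (0.079).

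The cartilage list gave 1 call. Of 36 tested genes 1 rose, Frzb, which binds Wnt ligands outside the cell, 0 fell and the median was 0.02. Over all tested genes 0.922% rose and 0.239% fell. Frzb was at 84.1, 64.8 and 58.4 in OAC and 154, 166 and 135 in SHAM, where HC had 168 and 195 and KT 91.0 and 119. Its SHAM libraries lay between those of KT and HC, and its call ended without OAC replicate 2 or 3 or SHAM replicate 1 or 2 (limma, Benjamini-Hochberg adjusted p of 0.068, 0.068, 0.059 and 0.074). Acan, the aggregating proteoglycan, was at 175, 239 and 200 in OAC and 359, 284 and 356 in SHAM, and the lubricant Prg4 at 1062, 1536 and 1188 and at 2548, 1651 and 2291. Both lay wholly higher without passing (0.14 and 0.49). In the authors' deposited table both were higher, with log2 differences of 0.73 for Acan (adjusted p 0.00024) and 0.81 for Prg4 (0.0025). Of 16 superficial zone and lubricant genes, Prg4 among them, limma called 0 (unadjusted p under 0.05: 4 higher, 0 lower), the median was -0.10 and the authors' deposited table had 5 higher and 0 lower. Their summed level was 3879 to 4360 FPKM in OAC and 5466 to 6276 in SHAM. Col2a1 ran from 2741 to 4644 in OAC and from 1884 to 3553 in SHAM, Sox9, the chondrocyte transcription factor, from 9.34 to 16.2 and from 12.9 to 18.6, and both overlapped. Wnt and TGF-beta lists gave 1 and 0 calls among 33 and 39 tested genes, the 1 being Frzb, and medians of -0.14 and -0.16. Of all tested genes 1.16% were called. In the TGF-beta list the unadjusted p was under 0.05 for 2 higher and 5 lower genes, and the authors' deposited table had 1 higher and 1 lower.

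**Figure D5:**
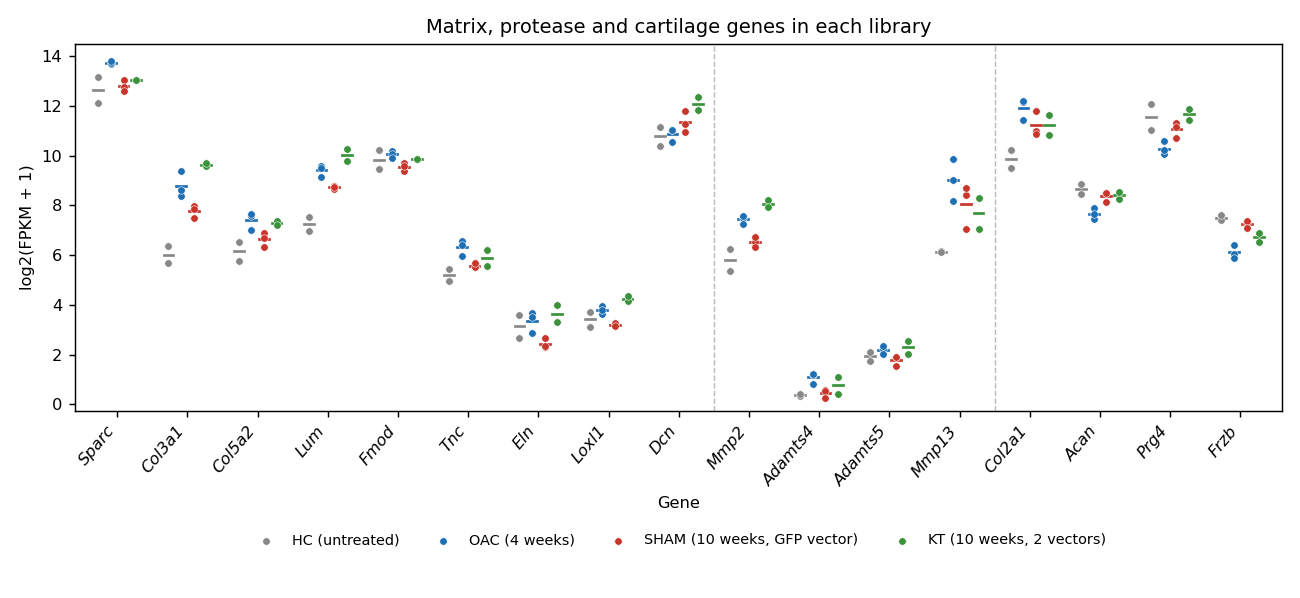
Level (log2(FPKM + 1), y axis) of 17 genes (x axis) in each library, 1 point per library with a bar at the group mean; dashed lines separate fibrous matrix, protease and cartilage genes. Sparc, Col3a1, Lum, Mmp2 and Adamts4 have all SHAM points under all OAC points, Acan, Prg4 and Frzb have them above, and of these genes only Frzb was called.

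Of the 27 genes that fell 22 were on none of the lists, among them Mall, Cav1, Cav2, Loxl4 and Thbs3 above. Dio2, the enzyme that activates thyroid hormone, was at 7.35, 5.77 and 4.82 in OAC and 1.64, 3.02 and 0.831 in SHAM, and Akr1b7, an aldo-keto reductase, at 2.65, 1.30 and 1.94 and at 0.362, 0.327 and 0.314. Crispld2, a secreted protein, was at 50.2, 56.7 and 63.6 and at 21.9, 27.4 and 21.7, and HC lay lower than either group, at 13.3 and 14.6. No SHAM library reached an OAC library in any of the 3. Dio2 lost its call without OAC replicate 1, 2 or 3 or SHAM replicate 1 or 3, Akr1b7 without OAC replicate 3 or SHAM replicate 2 or 3, and Crispld2 without any 1 of the 6 libraries (limma, Benjamini-Hochberg adjusted p of 0.056 to 0.16 over the 3 genes). Sprn, Tmem35a, Rnf144b, Kcnk1 and Stmn4, which lay between 2.13 and 10.2 FPKM in the OAC libraries, were 2.42 to 6.24 times lower in SHAM, and each of these calls ended in at least 3 of the 6 fits that left out 1 library (0.053 to 0.16). The other 9, named here after their values were seen (Ddx3x, Dnajc22, Nr2c2ap, Leo1, Dhrs7, Castor1, Prkcz, S100a3 and Arsi), were 1.36 to 2.12 times lower in SHAM, and each call ended in at least 3 of those fits (0.052 to 0.23).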

How the data were processed

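Whole-joint-surface RNA of rat knee cartilage was sequenced by the submitters as stranded paired-end messenger RNA libraries, per the labels' protocols. Tools listed in the submitters' processing notes were STAR 2.5.3a, HOMER, FastQC 0.11.2 and DESeq2 1.18.1, with build rn6. The authors deposited FPKM values, counted with HOMER over exons on the minus strand setting with 1 transcript kept per gene, per the file headers. The authors' deposited comparison table gives log2 fold changes, p-values and adjusted p-values from DESeq2, and the name of its counts holds a word for removal.

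All 10 libraries entered 1 fit in limma 3.58.1 under R 4.3.3, with group as the only term and the variance trended on level, on log2 of FPKM plus a pseudocount of 1. Genes needed a mean of 0.5 FPKM or more, and calls were made two-sided at a Benjamini-Hochberg adjusted p under 0.05. A log2 difference on this scale understates changes of low genes. Whole reads were recovered from FPKM and exon length (100% of values within 0.15 of a whole read), and limma's voom was run on them as an alternative. Counting intervals are exact binomial at 95% and cover counting error only. The fit was tested on simulated data.

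Members and the 44 gene lists (987 of 1082 entries in the table) were chosen with earlier results of these data known, and list counts are descriptions without a list test. Genes were named by rule: the 15 largest called changes in each direction without overlap and at 1 FPKM or more in the higher group, up to 6 called and 3 uncalled members of each list, and a set of fixed genes. Genes named beyond it, such as Slc11a1, Slamf8, Slc2a6, Cav2, Thbs3, MGC105649, Mir147, Lum, Col3a1, Mmp2 and the uncalled members of the interferon, complement and lymphocyte lists, were chosen after their values were seen. Alternatives were the pseudocount, the filter, 2 scalings, the 6 libraries alone, a replicate block, array weights, voom and leaving out each library. Promoter letters come from RefSeq (GRCr8) and were matched by RefSeq transcript, or by symbol where the transcript was not found, for 28 of 30 called genes. A few list members are not reported here.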

Additional observations from a re-analysis of the deposited data

How the results depend on the processing

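The count of called genes was 131 (104 higher, 27 lower) and ran from 54 to 91 when 1 library was left out (49 to 76 higher, 4 to 15 lower), with 46 higher and 3 lower genes called in all 6 such fits. A pseudocount of 0.1 gave 102 higher and 25 lower, no filter 86 and 21, a filter at 2 FPKM 96 and 22, the 6 libraries alone 117 and 38, and voom 97 and 22. Median-of-ratios scaling gave 96 and 16, quantile normalization 93 and 20, and array weights 220 and 104 (324 in all). None of the named genes that were called changed direction under any of these. The replicate numbers do not pair the libraries, as same-numbered deviations had correlations of -0.07, -0.38 and -0.16. No library of either group correlated best with its own number. With the replicate number as a block 93 genes were higher and 14 lower, with 97 of the 131 kept. RT1 members called (12) ran from 7 to 12 and complement members (4) from 1 to 4 when 1 library was left out, and complement gave 8 with array weights. Core circadian members (7) numbered 4 without a filter, with quantile normalization and with the block, and 3 to 5 when 1 library was left out. The cause of these shifts was not tested. The share of calls that were higher was 79.4%, 67.9% with array weights 86.9% with the block and 83.5% to 93.8% when 1 library was left out. Depth limits genes below the filter, such as Ifng and Il6, whose counting intervals are wide.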

Other observations

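A few low or unlisted genes were noticed after their values were seen. Il10, an anti-inflammatory cytokine, lay under the filter with 7, 4 and 0 reads in OAC and 13, 18 and 15 in SHAM (ratio per library total 4.47, exact 95% counting interval 2.28 to 9.56), and its reads in KT were 4 and 18. Gzmb, a cytotoxic granule protease, had 28, 22 and 26 reads in OAC and 32, 69 and 30 in SHAM (ratio 1.84, 1.38 to 2.47). Nos2, the inducible nitric oxide synthase of macrophages and chondrocytes, had 2, 7 and 21 reads in OAC and 69, 52 and 33 in SHAM, and 12 and 2 in KT. Ephx1, a detoxifying hydrolase on none of the lists, was at 7.42, 6.82 and 6.61 FPKM in OAC and 20.8, 19.0 and 20.2 in SHAM, with KT at 26.2 and 18.9. Fxyd2, a modulator of the sodium pump, was at 24.8, 32.7 and 18.2 in OAC and 73.0, 107 and 71.4 in SHAM, with KT at 72.0 and 107. Both were called higher in SHAM, and lost that call without OAC replicate 2 or 3 or SHAM replicate 2 or 3 for Ephx1 (limma, Benjamini-Hochberg adjusted p of 0.051 to 0.06) and without OAC replicate 1 or 3 or SHAM replicate 2 for Fxyd2 (0.054 to 0.058).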
